A study of Mus musculus with 18 samples.

Results

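Complement genes of the mouse cortex were followed through 3 comparisons of controls and of mice that lack *Chd8* in astrocytes (conditional knockout, cKO), with and without lipopolysaccharide (LPS). The 7 genes were *C1qa*, *C1qb*, *C1qc*, *C4b*, *C3*, *C3ar1* and *Serping1*, found by symbol among the 13784 genes of each of the authors' deposited tables, and all 7 were present. Complement is a cascade of plasma and tissue proteins that tags targets for uptake by phagocytes and recruits immune cells. C1q, built from the A, B and C chains, recognises the target and starts the classical pathway, C4 and then C3 are cleaved and deposited, and the C3a fragment acts through its receptor C3ar1. Serping1, the C1 inhibitor, blocks the proteases that associate with C1q. In the brain, microglia are the main source of C1q, and C1q and C3 are known for tagging synapses that microglia then remove.

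Bulk RNA came from the dissected cortex of 18 mice. The groups were 4 controls given saline, 5 controls given LPS, 4 *Chd8* cKO mice given saline and 5 *Chd8* cKO mice given LPS. LPS, a bacterial cell-wall component, was injected into the abdominal cavity at 5 mg/kg in mice aged 4 to 6 months, and brains were taken after 72 hours. The labels give neither the Cre line that deletes *Chd8*, a chromatin remodeller, nor the alleles of the controls, nor the sex of the mice. Astrocytes are only a part of the cells in whole cortex.

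The values were those of the authors' deposited tables, which hold a log2 fold change and its test per gene and no value per mouse. The spread between mice therefore enters only through standard errors (SE) derived from the deposited fold change and F statistic, and sequencing depth is unknown. Every title carries the word for saline, so mice were grouped by the genotype label, which names the treatment too. No batch is named, but codes are plain numbers in saline mice and carry a letter in LPS mice, so treatment and any difference behind these codes cannot be told apart. The deposited p-values set a difference between groups against the estimated spread between the libraries of a group. The tables also bear on the number of LPS libraries. Among the 630 genes with a mean log2 CPM (a count scaled to library size) of at least 8 in controls, levels rebuilt from the LPS table and from the genotype table differed by an SD of 0.000258 when 4 saline and 3 LPS libraries were assumed. With the 4 and 5 mice of the labels that SD was 0.0259. For cKO mice the SDs were 0.000264 and 0.0329 over 628 genes. The labels give 5 LPS mice a group, while the deposited values were matched more closely by 3. The deposited p-values do not depend on this reading.

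Promoter sequence from RefSeq, build GRCm38.p6, is shown for *C1qb*, *C1qc*, *C3* and *C3ar1*. These are the 4 of the 7 genes for which it was available, and not a group set apart by their response to LPS. Each window runs from 250 bases before to 50 bases after the gene's start on the gene's own strand, which is the minus strand for all 4. *C1qb* lies at chr4:136886151-136886450, *C1qc* at chr4:136892865-136893164, *C3* at chr17:57228087-57228386 and *C3ar1* at chr6:122856108-122856407. Capitals mark matches, on either strand, to an ETS core (AGGAAG), a C/EBP half-palindrome (TTGCNNAA) or an NF-kB site.
C1qb: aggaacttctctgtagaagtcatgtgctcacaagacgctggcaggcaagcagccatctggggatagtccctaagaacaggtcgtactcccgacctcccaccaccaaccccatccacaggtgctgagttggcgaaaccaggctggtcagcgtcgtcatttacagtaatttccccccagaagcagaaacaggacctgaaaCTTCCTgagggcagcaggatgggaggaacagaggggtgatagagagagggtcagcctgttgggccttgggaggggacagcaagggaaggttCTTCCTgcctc
C1qc: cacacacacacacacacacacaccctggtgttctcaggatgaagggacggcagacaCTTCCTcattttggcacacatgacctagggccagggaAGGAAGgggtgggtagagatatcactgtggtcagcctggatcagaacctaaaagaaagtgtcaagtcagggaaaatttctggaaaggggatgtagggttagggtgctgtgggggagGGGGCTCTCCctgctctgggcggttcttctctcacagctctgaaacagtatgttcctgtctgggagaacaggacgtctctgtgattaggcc
C3: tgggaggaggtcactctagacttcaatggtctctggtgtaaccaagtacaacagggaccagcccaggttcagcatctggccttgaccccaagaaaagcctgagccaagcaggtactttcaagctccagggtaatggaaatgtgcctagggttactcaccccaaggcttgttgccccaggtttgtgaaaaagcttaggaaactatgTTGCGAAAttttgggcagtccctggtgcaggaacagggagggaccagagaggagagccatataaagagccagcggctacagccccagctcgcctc
C3ar1: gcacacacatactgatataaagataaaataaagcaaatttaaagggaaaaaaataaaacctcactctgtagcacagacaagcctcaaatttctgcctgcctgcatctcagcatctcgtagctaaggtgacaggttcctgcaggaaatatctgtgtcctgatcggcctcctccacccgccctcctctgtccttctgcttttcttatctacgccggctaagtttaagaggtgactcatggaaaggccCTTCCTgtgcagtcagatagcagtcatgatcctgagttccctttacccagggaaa

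The ETS core, the letters bound by the macrophage factor PU.1 and its relatives, was found in 3 of these 4 windows. In *C1qb* it covered bases -52 to -47 and 40 to 45 from the start, in *C1qc* bases -194 to -189 and -157 to -152, and in *C3ar1* bases -5 to 1. Of 32851 mouse promoter windows of this length, 35.4% hold the same letters. The *C3* window held none of them and had a C/EBP match at -45 to -38, present in 10.8% of windows. An NF-kB match stood at -41 to -32 in *C1qc*, a motif found in 8.46% of windows. No match to the STAT motif (TTCNNNGAA, 8.3% of windows) or the interferon response element (GAAA followed, after any 2 bases, by another GAAA, 3.44% of windows) was found in any of the 4. These matches did not overlap one another. A match says only that these letters occur there.

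Per length of transcript, the C1q chains had the highest levels of the 7 genes in every group and *C3* the lowest. Group levels were rebuilt from the authors' deposited tables and carry no spread, so neighbours in the order cannot be told from each other by a test. In CPM per kilobase, *C1qa* stood at 30.5 in control saline, 76.5 in control LPS, 30.4 in cKO saline and 66.8 in cKO LPS. The order *C1qa*, *C1qb*, *C1qc*, *C4b*, *Serping1*, *C3ar1*, *C3* was the same in all 4 groups. *C1qb* and *C1qc* were close in saline, at 23.2 and 22.8 in controls and 22.7 and 22.6 in cKO mice. *C3* had 0.0976 CPM per kilobase in control saline and 0.0724 in cKO saline, and rose to 0.790 in control LPS and 0.961 in cKO LPS. The level of *C4b* per kilobase was 46.1 times that of *C3* in control saline and 21.5 times in control LPS. In cKO mice these ratios were 72.4 and 18.0.

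**Figure D1:**
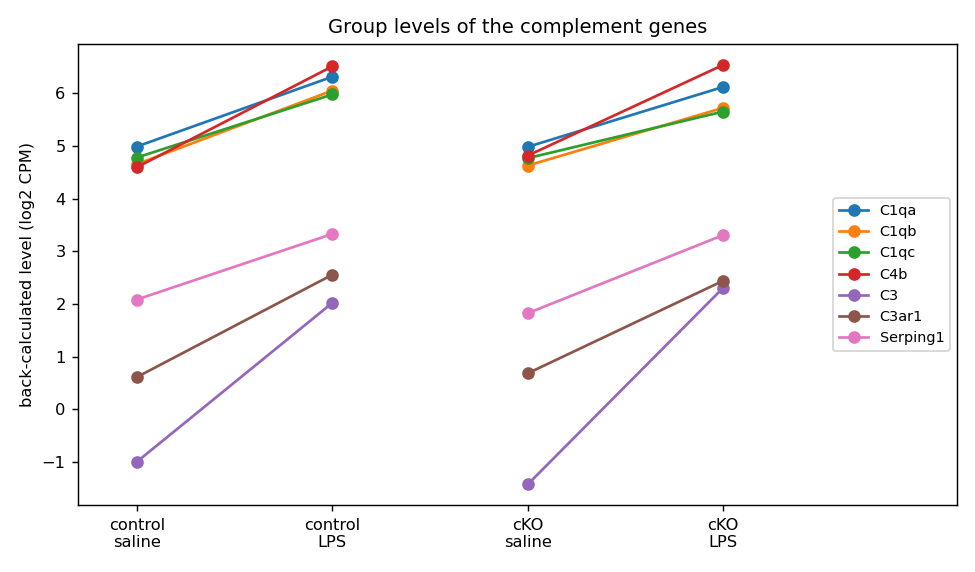
Rebuilt levels of the 7 complement genes in log2 CPM, not divided by length, in the 4 groups; each point is a group value and no spread is available. Both LPS groups lie above both saline groups for every gene, from 4.99 to 6.31 for *C1qa* and from -0.996 to 2.02 for *C3* in controls.

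All 7 genes were higher after LPS in controls and all 7 were higher after LPS in cKO mice. A gene counted as called at a false discovery rate (FDR) below 0.05 in the authors' deposited table, where the test is that of edgeR adjusted over 13784 genes. Among all genes, 6.46% were called higher and 3.31% lower in controls, and 10.9% were called higher and 8.52% lower in cKO mice. Genes called higher in both made up 3.68% of those tested. The median log2 fold change of the 7 genes was 1.39 in controls and 1.48 in cKO mice, while the median of all genes was -0.00 in each. In whole cortex, more cells of a type and more RNA per cell cannot be told apart.

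The 3 C1q chains moved by similar amounts. In controls *C1qa* went from a level of 4.99 to 6.31 log2 CPM, *C1qb* from 4.66 to 6.05 and *C1qc* from 4.78 to 5.98. The log2 fold changes in the authors' deposited table were 1.33 ± 0.12 (SE) for *C1qa*, 1.39 ± 0.13 for *C1qb* and 1.197 ± 0.13 for *C1qc*, with FDR = 0.000273, 0.000324 and 0.000885. These are 2.51-fold, 2.63-fold and 2.29-fold higher levels. The chains spanned 0.20 on the log2 scale, against SEs of 0.12 to 0.13. In the cKO mice the levels went from 4.98 to 6.12, from 4.63 to 5.72 and from 4.77 to 5.65. The authors' deposited table for cKO mice gave 1.14 ± 0.25 for *C1qa*, 1.10 ± 0.19 for *C1qb* and 0.88 ± 0.23 for *C1qc*, with FDR = 0.0172, 0.00811 and 0.0295. Here the chains spanned 0.25, about the size of the largest SE. *C1qa*, *C1qb* and *C1qc* are neighbours on chromosome 4 in the RefSeq annotation.

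*C4b*, the mouse gene for complement C4, is cleaved after C1q has bound its target. Its level went from 4.60 to 6.51 log2 CPM in controls and from 4.82 to 6.54 in cKO mice. The authors' deposited tables gave log2 fold changes of 1.91 ± 0.14 in controls (FDR = 8.28e-05) and 1.72 ± 0.36 in cKO mice (FDR = 0.0146). Of the 7 genes it had the smallest FDR in controls. The near-identical copy *C4a*, whose reads could be shared with *C4b* in counting, was not called in either of the authors' deposited tables, at 0.13 ± 0.33 (FDR = 0.831) and 0.37 ± 0.20 (FDR = 0.216). The split between *C4a* and *C4b* is therefore uncertain.

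*C3*, where all complement pathways meet, had the largest fold change of the 7. Its level went from -0.996 to 2.02 log2 CPM in controls and from -1.43 to 2.30 in cKO mice. In the authors' deposited table for controls *C3* rose by 3.02 ± 0.31 (95% interval 2.33 to 3.70, FDR = 0.000504), which is 8.09-fold. It ranked 9 of 13784 by fold change. For cKO mice the authors' deposited table gave 3.73 ± 0.86 (95% interval 1.81 to 5.65, FDR = 0.0192), at rank 5. Both saline levels of *C3* were below 1 CPM.

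*C3ar1*, the receptor for the C3a fragment, went from 0.61 to 2.55 log2 CPM in controls and from 0.68 to 2.44 in cKO mice. Its log2 fold changes in the authors' deposited tables were 1.94 ± 0.18 (FDR = 0.000281) and 1.76 ± 0.30 (FDR = 0.00749). *Serping1*, the inhibitor of the first proteases of the classical pathway, went from 2.08 to 3.33 log2 CPM in controls and from 1.82 to 3.31 in cKO mice. The authors' deposited tables gave 1.24 ± 0.14 (FDR = 0.00111) and 1.48 ± 0.28 (FDR = 0.0108) for *Serping1*. Receptor and inhibitor were thus both higher after LPS, in controls and in cKO mice. The SEs of all 7 genes were larger in cKO mice than in controls, and at an FDR below 0.01 only *C1qb* and *C3ar1* kept their call in cKO mice.

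**Figure D2:**
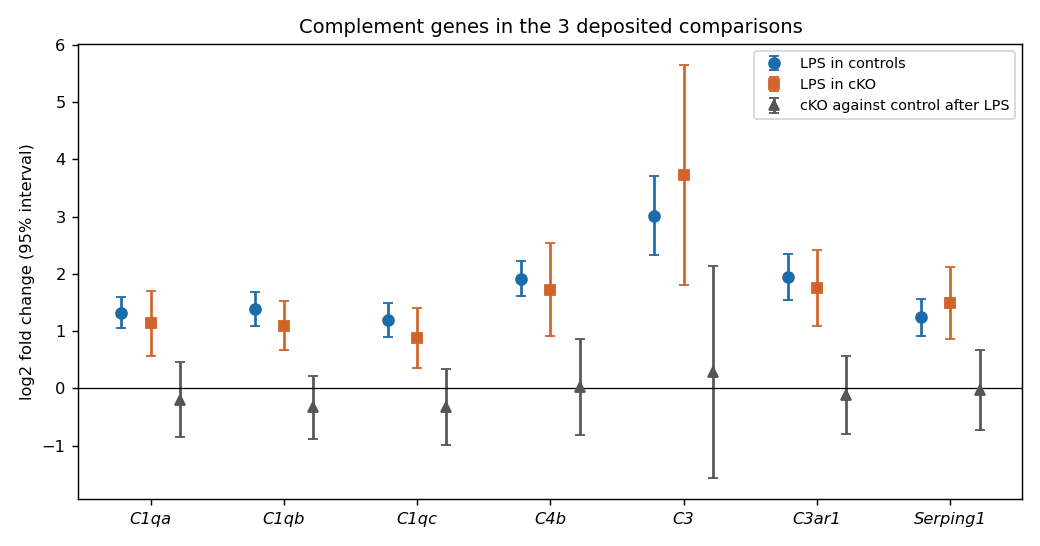
Log2 fold change of each complement gene in the authors' deposited tables, with 95% intervals derived from F. Blue circles are LPS against saline in controls, orange squares the same in cKO mice and grey triangles cKO against control after LPS; the blue and orange intervals lie above 0 for every gene and the grey ones all cross 0.

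After LPS, cKO and control cortex were not distinguished for any of the 7 genes. None was called in the authors' deposited table of genotypes, and none had an unadjusted p below 0.05. Across all genes, 0.00725% were called in that table and 12.3% had an unadjusted p below 0.05. *C1qa* differed by -0.19 ± 0.28 (95% interval -0.84 to 0.45, FDR = 0.811) in the authors' deposited table, which spans 0.558 to 1.37 times the control level. *C1qb* and *C1qc* both stood at -0.33, with SEs of 0.24 and 0.29 (FDR = 0.604 and 0.676) in the authors' deposited table. There *C4b* was at 0.03 ± 0.37 (FDR = 0.986), *C3ar1* at -0.12 ± 0.30 (FDR = 0.902) and *Serping1* at -0.02 ± 0.31 (FDR = 0.986). *C3* had the widest interval in the authors' deposited table, -1.57 to 2.13 around 0.28 (FDR = 0.915), or 0.337 to 4.39 times the control level. Of the 7 point values 5 lay below 0 and 2 above, with a median of -0.12. These intervals do not show that the genotypes were alike.

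The LPS response itself was compared between genotypes as the cKO minus the control log2 fold change. For *C1qa* this difference was -0.19 (95% interval -1.05 to 0.68), for *C1qb* -0.30 (-1.10 to 0.51) and for *C1qc* -0.31 (-1.10 to 0.47). It was -0.19 (-1.42 to 1.04) for *C4b* and -0.19 (-1.38 to 1.01) for *C3ar1*. *Serping1* and *C3* lay on the other side of 0, at 0.24 (-0.74 to 1.22) and 0.71 (-1.91 to 3.34). None of the 7 was called, with Benjamini-Hochberg adjusted p from 0.929 to 0.977 over all genes, and none had an unadjusted p below 0.05. Over all genes, 0.00725% were called and 6.52% had an unadjusted p below 0.05. These intervals rest on SEs taken from the p-values, which are wider for strongly changed genes than SEs from F. With SEs from F the interval was -0.79 to 0.41 for *C1qa*, -0.79 to 0.19 for *C1qb*, -0.88 to 0.26 for *C1qc* and -1.04 to 0.65 for *C4b*. It was -0.92 to 0.55 for *C3ar1*, -0.44 to 0.91 for *Serping1* and -1.27 to 2.70 for *C3*. All 7 still crossed 0, with adjusted p from 0.754 to 0.918 and no unadjusted p below 0.05.

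After saline, the cKO minus control value follows from the 3 fold changes as a point estimate with no test. It was -0.01 for *C1qa*, -0.03 for *C1qb*, -0.01 for *C1qc* and 0.07 for *C3ar1*. *C4b* stood at 0.22, above 97.8% of genes, *Serping1* at -0.26, above 2.55% of genes, and *C3* at -0.43, above 0.769% of genes. By these point estimates the C1q chains were nearly level between saline groups, while *C4b* lay above 0 and *C3* and *Serping1* below. The error of these estimates is unknown, and the shares of genes take no account of it. For *C3*, below 1 CPM in both saline groups, the 3 fold changes had large SEs. These were 0.81 for genotypes after LPS, 0.86 for LPS in cKO mice and 0.31 for LPS in controls.

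**Figure D3:**
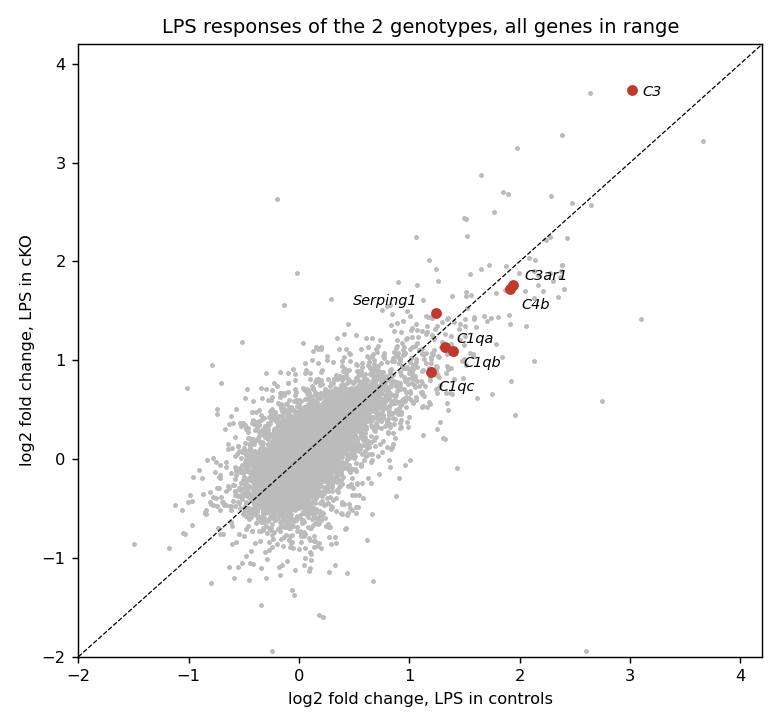
Log2 fold change after LPS in controls (x axis) and in cKO mice (y axis) for all genes in grey and the 7 complement genes named, from the authors' deposited tables; 13773 genes are drawn and 11 lie outside the axes. All 7 genes stand to the upper right, with *C3* at 3.02 and 3.73 and the others between 0.88 and 1.94.

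A wider list of 64 complement genes shows which parts of the cascade were measured. Of these, 31 were among the genes of the tables, 24 of them outside the 7. None of the 7 terminal pathway genes, which form the membrane pore, was among the genes tested. In the authors' deposited table for controls, 5 of the 24 were called higher and none lower, with a median of 0.15, beside 6.46% and 3.31% of all genes. For cKO mice, 5 were called higher and 2 lower in the authors' deposited table, with a median of 0.21, beside 10.9% and 8.52% of all genes. The 2 lower calls of 24 are thus near the share over all genes.

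Receptors were the only role in which every measured gene was called higher in both LPS tables. All measured genes that start the classical pathway, and all measured regulators of the fluid phase, also lay above 0 in both. Not all of those were called. *Itgam* and *Itgb2*, the chains of complement receptor 3, and *Cd93*, first described as a C1q receptor, were called higher along with *C3ar1* in both LPS tables. In the authors' deposited tables *Itgam* rose by 1.57 ± 0.17 in controls and 1.06 ± 0.28 in cKO mice (FDR = 0.000599 and 0.0309). *Itgb2* rose by 1.503 ± 0.13 and 1.34 ± 0.32 (FDR = 0.000273 and 0.0209) in the authors' deposited tables. The values for *Cd93* there, by the authors' deposited tables, were 1.48 ± 0.12 and 0.99 ± 0.22 (FDR = 0.000187 and 0.0172).

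Among the other proteins that start the classical pathway, *C1ra*, a protease of the C1 complex, rose in controls by 0.56 ± 0.14 (FDR = 0.0367) in the authors' deposited table and stood at 0.34 ± 0.27 in cKO mice (FDR = 0.391). *C2*, which joins C4 in the C3 convertase, was at 0.26 ± 0.28 and 0.81 ± 0.39 in the authors' deposited tables and was not called. Of 9 genes listed under the start of the lectin pathway, only *Masp1* and *Colec12* were measured. Neither was called in either LPS table.

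Of the other measured regulators of the fluid phase, *Clu*, which binds the terminal complex and is made by astrocytes, rose in controls by 0.40 ± 0.08 (FDR = 0.0151) in the authors' deposited table. It was not called in cKO mice, where the authors' deposited table gave 0.18 ± 0.07 (FDR = 0.113). The response of *Clu* was not shown to differ between genotypes, with adjusted p = 0.831 for the difference. *Vtn*, which also binds the terminal complex, was not called in either LPS table. Of 8 measured regulators on membranes, none was called in controls, and *Csmd2* was called lower in cKO mice at -0.30 ± 0.08 (FDR = 0.0353) in the authors' deposited table. *Cd55*, *Cd46* and *Cd59a*, which protect cells from complement, were not called in either LPS table. Of 5 neuronal complement-binding proteins, *Sez6l* and *Sez6l2* were called higher in cKO mice at 0.32 ± 0.08 and 0.34 ± 0.08 (FDR = 0.0225 and 0.0192) in the authors' deposited table, and *Nptx2* was called lower at -0.28 ± 0.09 (FDR = 0.0459). In controls the authors' deposited table gave *Sez6l* 0.31 ± 0.10 and *Sez6l2* 0.25 ± 0.09, neither called (FDR = 0.0764 and 0.0878).

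Between the genotypes after LPS, none of the 24 other complement genes was called and 4 had an unadjusted p below 0.05, near the 12.3% of all genes that did. Their values are given as a description. *Cfp*, properdin, which stabilises the C3 convertase of the alternative pathway, was at -0.74 ± 0.21 (FDR = 0.291) and *Csmd2* at -0.44 ± 0.09 (FDR = 0.198) in the authors' deposited table. *Cd93* was at -0.67 ± 0.26 (FDR = 0.356) and *Nptx2* at -0.47 ± 0.16 (FDR = 0.334) there, in the authors' deposited table. For *Cfp* and *Csmd2* the difference of the LPS responses was -0.90 and -0.44, with adjusted p = 0.518 and 0.433.

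**Figure D4:**
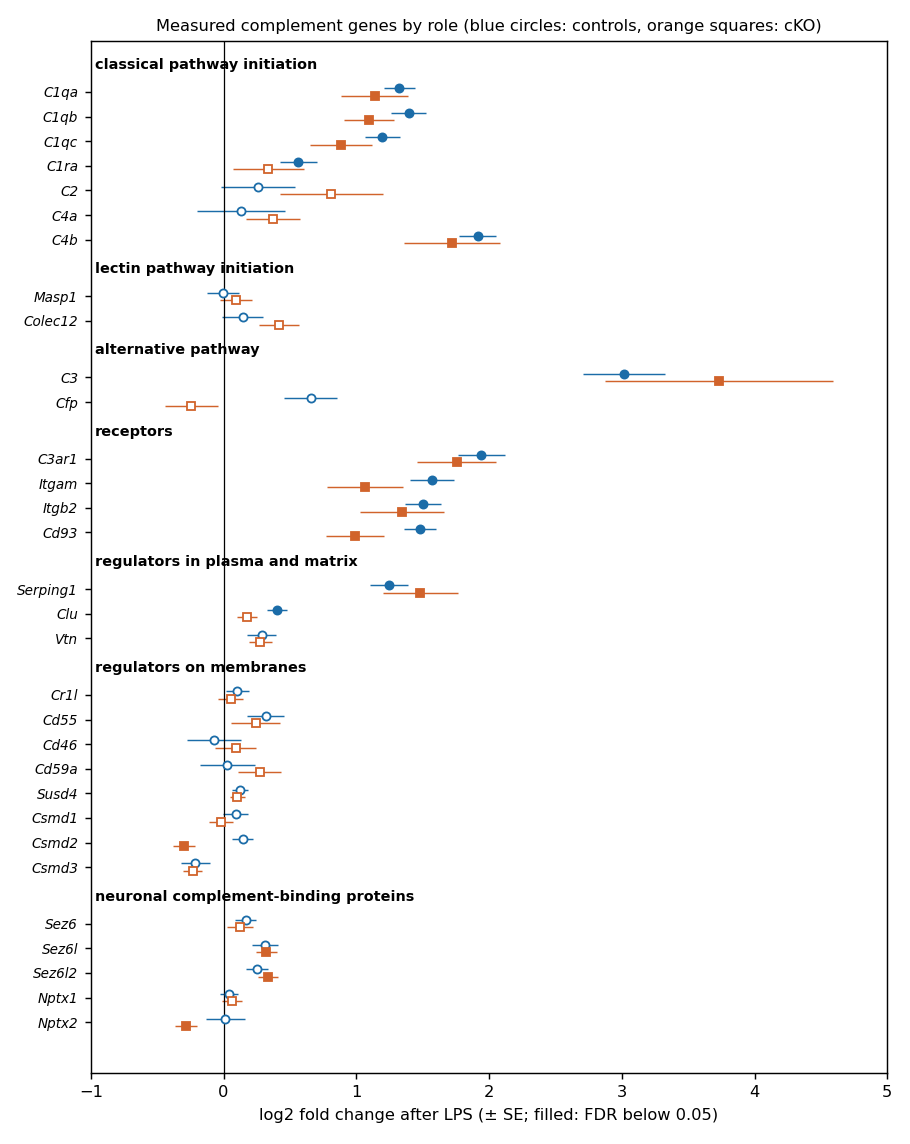
Log2 fold change after LPS with SE for the 31 measured complement genes by role, from the authors' deposited tables. Blue circles are controls, orange squares cKO mice and filled symbols an FDR below 0.05; the 4 receptors are filled in both, and none of the 8 membrane regulators is filled in controls.

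Some markers of several cell types were also called after LPS, and their part in the result was not tested. All 10 microglial markers were measured, and their summed level was 303 CPM in control saline, 431 in control LPS, 298 in cKO saline and 335 in cKO LPS. Of the 10, 5 were called higher in controls by the authors' deposited table. In cKO mice 3 were called higher and 2 lower, and the authors' deposited table ranged from -0.58 ± 0.12 for *P2ry12*, a receptor of resting microglia, to 0.75 ± 0.28 for *Aif1*, which was not called (FDR = 0.0837). Between the genotypes after LPS, all 10 microglial markers lay below 0, with a median of -0.40 and none called. The C1q chains lay below 0 in the same comparison. So did 7 of 8 endothelial markers (median -0.17) and 6 of 8 fibroblast and meningeal markers (median -0.34), with none called. Of 10 astrocyte markers 5 lay above 0, as did 2 of 3 markers of border macrophages and monocytes. Over all 13784 genes, 6826 lay below 0. Whether the C1q values follow any of these cell types was not tested.

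Endothelial markers summed to 210 CPM in control saline, 383 in control LPS, 215 in cKO saline and 355 in cKO LPS, with all 8 measured. Of these, 6 were called higher in controls and 5 in cKO mice. Fibroblast and meningeal markers, with 8 of 8 measured, summed to 75.4, 119, 65.6 and 105 CPM in the same order. Markers of border macrophages and monocytes, with 3 of 10 measured, summed to 12.0, 22.2, 11.4 and 22.3 CPM. None of 8 neutrophil markers and none of 7 T and B cell markers was among the genes tested. Astrocyte markers, with 10 of 10 measured, summed to 3941, 3829, 4504 and 4043 CPM, so the labelled cortex carried its astrocyte markers in every group. The sum hides opposite moves, with 1 called higher and 2 lower in controls, and none higher and 4 lower in cKO mice. *Gfap*, a filament protein of reactive astrocytes, rose by 1.35 ± 0.12 in controls (FDR = 0.000286) and stood at 1.06 ± 0.34 in cKO mice (FDR = 0.0548) in the authors' deposited tables. Cortical neuron markers, with 8 of 8 measured, lay between 4940 and 5088 CPM.

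Choroid plexus, striatal and sex-linked transcripts also differed between groups, and their part in the complement values was not tested. Choroid plexus markers, with 3 of 8 measured, summed to 87.1 CPM in control saline and 95.9 in cKO saline against 9.23 and 19.0 after LPS, and none was called. Striatal markers, with 7 of 7 measured, all lay above 0 in cKO against control after LPS, with a median of 0.63 and none called. The rebuilt level of the Y-linked *Ddx3y* was -6.63 log2 CPM in control saline, 4.24 in control LPS, 5.82 in cKO saline and 5.66 in cKO LPS. *Uty*, also Y-linked, stood at -6.63, 3.18, 4.70 and 4.2002 in the same order, and *Xist*, made from the inactive X chromosome, at 7.40, 7.26, 4.49 and 6.05. Treatment and Y-linked expression therefore cannot be told apart in the control comparison. Y-linked levels also differed between control saline and cKO saline. The saline point estimates and the difference of LPS responses both use control saline, so genotype and Y-linked expression cannot be told apart there either. For cKO against control after LPS, the authors' deposited table gave 1.42 for *Ddx3y*, 1.02 for *Uty* and -1.21 for *Xist*. None of these was called (FDR = 0.764, 0.823 and 0.810). Those values do not show that the 2 LPS groups were alike in sex-linked expression. In cKO mice none of the 3 sex-linked transcripts was called after LPS. The authors' deposited table leaves wide intervals, however, -3.06 to 2.74 for *Ddx3y* and -2.81 to 5.93 for *Xist*.

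**Figure D5:**
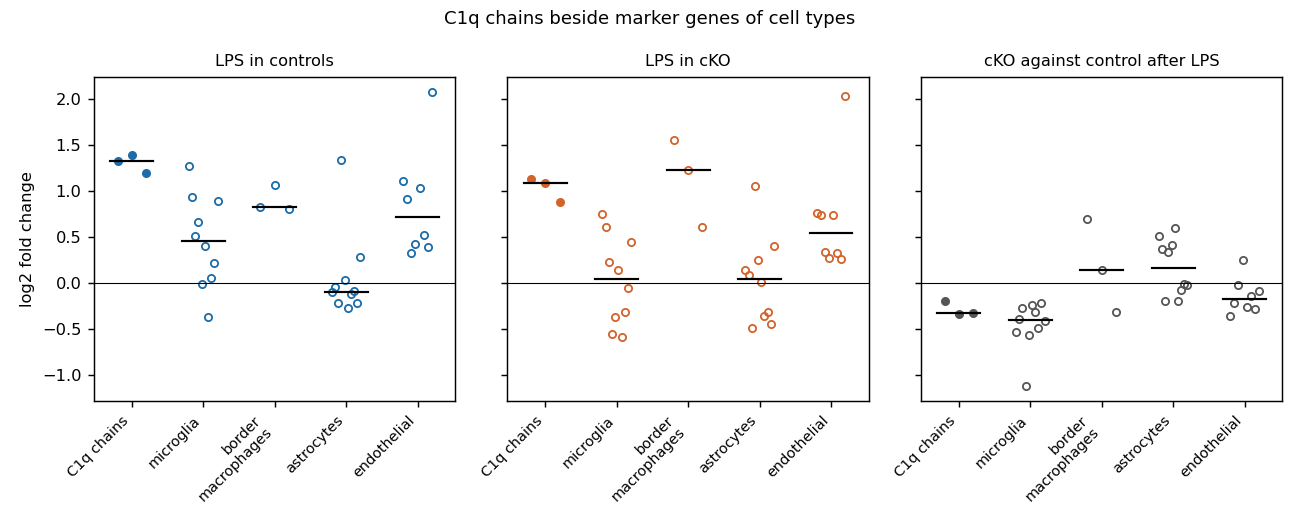
Log2 fold change of the C1q chains and of marker genes of microglia, border macrophages, astrocytes and endothelial cells, with a panel for each comparison. Values are from the authors' deposited tables. Each point is a gene, filled for the C1q chains, and black lines are medians. In the panel of cKO against control after LPS, the C1q chains and all microglial markers lie below 0. So do 7 of 8 endothelial markers, while 5 of 10 astrocyte and 2 of 3 border macrophage markers lie above 0.

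The genes closest to each complement gene were found by the root mean square difference of the 3 deposited log2 fold changes, over 12472 genes. Such a likeness rests on 3 values that share groups and is a description. *Tagln2*, *Clic1* and *Cyba*, a subunit of the phagocyte NADPH oxidase, lay nearest the mean of the C1q chains, at 0.0364, 0.0642 and 0.0651. *Serpina3n*, a marker of reactive astrocytes, *Fam205a4* and *Tlr2*, a receptor for bacterial lipoproteins, lay nearest *C4b*, at 0.111, 0.112 and 0.195. *Tlr2*, *Fam205a4* and the endothelial clotting gene *Vwf* lay nearest *C3ar1*, at 0.139, 0.150 and 0.183. *Serping1* was nearest to LOC115487256, *Snora74a* and the antibody receptor *Fcgr1*, at 0.0543, 0.0870 and 0.0939. *C3* had no close neighbour, the nearest being *Ugt1a6a*, *Cd52* and *Rps16* at 0.907, 0.972 and 1.02. In the authors' deposited tables *Fam205a4* was not called after LPS in controls or cKO mice (FDR = 0.181 and 0.332). *Serpina3n* was not called in cKO mice (FDR = 0.0845) and *Rps16* not in controls (FDR = 0.118). The other neighbours were called higher in both LPS tables. Within the 7, *C4b* and *C3ar1* were closest at 0.0867, followed by *C1qa* and *C1qb* at 0.0901.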

How the data were processed

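RNA of mouse cortex was sequenced from ribosome-depleted, stranded libraries, per the labels' protocols. Cutadapt 3.5, STAR, RSEM, edgeR 3.30.3 and build GRCm39 are named in the submitters' processing notes, without role or order. Per the file headers, each of the 3 tables the authors deposited lists, for 13784 genes, the log2 fold change, the mean log2 CPM, F (a score), the p-value and the FDR, 757 of them without a symbol.

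Positive fold changes were read as LPS or cKO higher: only with these signs did levels rebuilt from different tables match, the larger of both SDs over genes being 0.0537, against at least 0.226 with any sign turned. SEs are the absolute fold change over the root of F, and intervals use the degrees of freedom that F and p imply (9.85, 9.76 and 8.66). The difference of LPS responses takes its SEs from deposited p-values turned into normal quantiles. It was also run on simulated data, whose SEs were drawn without regard to the size of the response. That run therefore does not cover strong responders with large SEs such as *C3*. LPS levels were taken from the genotype table and saline levels from these minus the deposited fold change, a reading chosen after seeing the data in place of the planned one with the group sizes of the labels. Levels per length use the longest GENCODE M21 transcript.

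The 7 genes, the wider list and the marker lists were chosen with earlier results of these data known. Named genes are the 7, any called gene of the wider list and extremes of its roles, extreme markers, and the 3 nearest genes by fold change among those whose mean log2 CPM is 1 or more. *C2* was added after its values were seen. A gene of the wider list is not reported here and stays out of its counts. Python 3.11.15, numpy 2.4.6, pandas 2.3.3, scipy 1.17.1 and matplotlib 3.10.9 were used. Alternatives covered thresholds, low-expression filters, recentring, a GC and length trend, the SE and the levels.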

Additional observations from a re-analysis of the deposited data

How the results depend on the processing

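In both LPS comparisons all 7 genes kept their direction under the alternatives run. Thresholds and filters leave the fold change itself as it is, so only recentring and the GC and length trend could have turned a direction. Values of single genes were on the same side of the threshold in 141 checks and lost their call in 5, all at an FDR below 0.01 in cKO mice (*Serping1*, *C3*, *C1qa*, *C1qc* and *C4b*), which left 2 of 7 called higher. At that threshold the wider list, counted here with the 7 genes in it, kept 2 higher and 0 lower calls in cKO mice. The higher calls were *C1qb* and *C3ar1*, so no gene of the list outside the 7 kept its call. With a minimum fold of 1.5 the list had 0 lower calls in cKO mice. *C3* had a mean log2 CPM of 0.85 in the control table and was not tested there with a minimum of 1. The difference of LPS responses had adjusted p between 0.754 and 0.977 over its alternatives. Read from each LPS table with the group sizes of the labels, control levels in saline and LPS were 4.87 and 6.19 log2 CPM for *C1qa*, 4.42 and 6.33 for *C4b*, -1.46 and 1.56 for *C3*, 0.31 and 2.25 for *C3ar1*, and 1.92 and 3.17 for *Serping1*. Over all alternatives levels moved by -0.47 to 0.42. No paired analysis was possible because the tables hold no values per library, and leaving out each replicate was not run for the same reason. Depth per library is unknown, so the counts behind the low saline levels of *C3* cannot be given.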

Other observations

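The degrees of freedom that F and p imply were 9.85 for LPS in controls, 9.76 for LPS in cKO mice and 8.66 for genotypes after LPS. With the group sizes of the labels, 2.85, 2.76 and 0.663 of these are left beyond the residual ones, and with 3 LPS libraries a group 4.85, 4.76 and 4.66 are left. What is left was nearly equal in the 3 comparisons with 3 LPS libraries a group and unequal with the sizes of the labels. The number of LPS mice is given here as the labels state it, with the other reading beside it.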
